A study of Mus musculus with 2 samples.

Results

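The largest human cluster of replication-dependent histone genes, HIST1 on chromosome 6, was examined for H2BK120ub, histone H2B carrying a single ubiquitin on lysine 120. Its peaks were taken by position in hg19, from a first window at 26017000 to 26285000 (268 kb) and a second window at 27100000 to 27870000 (770 kb), and every peak touching a window by at least 1 bp was a member. Of 229310 peaks in both lists, 117 were members, 52 of 101866 in WT and 65 of 127444 in UBR7-KO. No peak crossed a window edge (0 peaks). The stretch between the windows, 26285001 to 27099999 (815 kb), held 31 WT peaks and 30 UBR7-KO peaks and served for comparison.

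Replication-dependent histone genes encode the core histones H2A, H2B, H3 and H4 and the linker histone H1. They are short genes without introns, they are transcribed mainly during S phase, and their mRNAs end in a stem-loop instead of a poly(A) tail. The H2B genes among them make the protein on which the mark is written. H2BK120ub is laid down along transcribed gene bodies by the E3 ligase pair RNF20 and RNF40 as RNA polymerase II elongates, and it is linked to methylation of histone H3. UBR7, an E3 ligase with a PHD finger, is another reported writer of the mark.

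The 2 libraries came from liver primary cells of wild-type mice (WT) and of Alb-Cre;UBR7fl/fl mice (UBR7-KO), 1 library per genotype, so no test between genotypes was possible and all differences are between 2 libraries. In the second genotype, Cre driven by the albumin promoter deletes the floxed UBR7 alleles mainly in hepatocytes, and other liver cells may keep them. The growth protocol describes the cells as conditionally immortalized and grown in DMEM with serum. Per the study's methods, the animals were male, 8 weeks old and of the C57BL/6 background. The labels say mouse, whereas the peaks lie on the human build hg19, with 6059 WT and 7213 UBR7-KO peaks on chromosomes 20 to 22, of which the mouse has none. The corresponding mouse cluster lies on mouse chromosome 13, where the RefSeq table of GRCm38 lists 53 protein-coding genes of this kind (6 of H1, 13 of H2A, 14 of H2B, 9 of H3 and 11 of H4). The windows are therefore the histone cluster of the build used by the authors. Whether the reads placed there were of mouse or of human sequence could not be told from the peak lists. No hg19 gene models were used, so peaks were not assigned to single genes. The windows also hold genes that do not encode histones. Histone genes are near-copies of each other, and the treatment of reads with several matching positions was not given in the sources used here, so the coverage of any single copy is uncertain.

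Peaks covered less of the first window than of the second. They covered 6.39% of the first window in WT and 6.30% in UBR7-KO, with 10 peaks in each list. In the second window they covered 11.05% in WT and 13.2% in UBR7-KO, with 42 and 55 peaks. The second window thus held 5.45 peaks per 100 kb in WT and 7.14 in UBR7-KO, against 3.73 in the first window of both lists. In the intervening stretch, 7.03% was covered in WT and 6.47% in UBR7-KO, at 3.80 and 3.68 peaks per 100 kb. The covered share of the second window was 1.57 times that of the intervening stretch in WT and 2.04 times in UBR7-KO, whereas the ratios were 0.910 and 0.975 for the first window.

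Set against larger stretches, the covered share of the first window was below the average and that of the second near or above it. Both windows were nonetheless covered more than the median stretch of their own length on chromosome 6. Peaks covered 8.71% of chromosome 6 in WT and 7.73% in UBR7-KO, and 11.6% and 10.3% of hg19, with unsequenced gaps counted in the length. The first window reached 0.734 times the share of chromosome 6 in WT and 0.815 times in UBR7-KO, and the second window 1.27 and 1.71 times. By peaks per length, the first window was at 1.08 times chromosome 6 in WT and 0.905 times in UBR7-KO, and the second at 1.58 and 1.73 times. Chromosome 6 was also divided into tiles of the length of each window, laid end to end from the window itself, as a description. Among 638 tiles of the length of the first window, the median covered share was 4.13% (WT) and 5.08% (UBR7-KO), and 222 and 268 tiles were covered more than the first window. The median number of peaks in these tiles was 8 in WT and 10 in UBR7-KO, beside the 10 of the first window in both lists, and 209 WT tiles and 315 UBR7-KO tiles held more. Among 222 tiles of the length of the second window, the medians were 4.24% and 5.15%, and 50 WT tiles and 42 UBR7-KO tiles were covered more. By number of peaks, 31 of these tiles held more than the second window in WT and 12 in UBR7-KO. The most covered tile of that length reached 62.8% in WT and 34.1% in UBR7-KO.

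**Figure D1:**
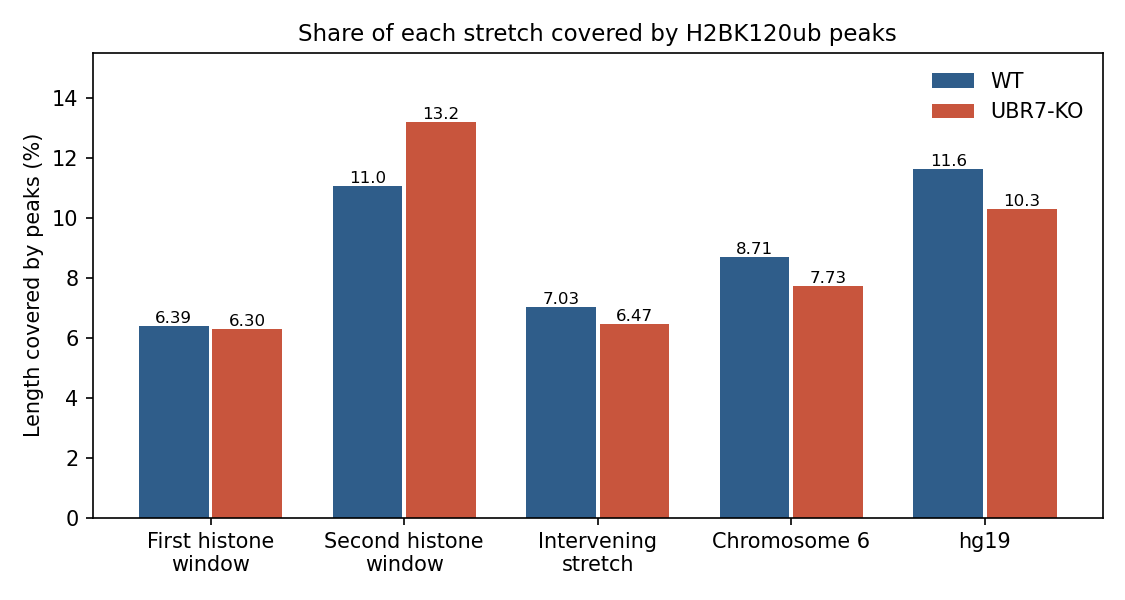
Bars give the share of length covered by peaks (%), as deposited, in each histone window, the intervening stretch, chromosome 6 and hg19, for the WT list and the UBR7-KO list (1 library each, no error bars). The first window stands at 6.39% and 6.30%, below hg19 as a whole, and the second window is the stretch where the UBR7-KO bar, at 13.2%, is above the WT bar, at 11.05%.

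Between the libraries, the second window was covered more in UBR7-KO, whereas the lists as a whole were covered less. UBR7-KO peaks covered 101.7 kb of it and WT peaks 85.1 kb, a ratio of 1.20, whereas the ratio of covered lengths was 0.888 on chromosome 6 and 0.885 over hg19. The first window was nearly equal, with 17.1 kb in WT and 16.9 kb in UBR7-KO (ratio 0.986), and the intervening stretch gave 0.920. Over both windows together, the ratio of covered lengths was 1.16 and that of peak numbers 1.25, the latter the same as the 1.25 over hg19. With lists cut to equal size by fold enrichment, the ratio of covered lengths over both windows was 0.915, and each list had 52 members. That ratio was 0.335 for peaks enriched by a fold of 2.5 or more, on 10 WT and 5 UBR7-KO peaks. It was 3.59 where the pileup had to reach 3 times the background, on 14 and 30 peaks. Fold enrichment adds 1 to pileup and background, so at equal fold enrichment the plain ratio is higher where pileup is lower. The pileup threshold thus depends on the pileups of each library and was not equally strict in both lists. Peak numbers shifted list-wide as well. The first threshold kept 17185 WT and 12452 UBR7-KO peaks of the whole lists, and the second 25796 and 57216. Ratios of covered length over chromosome 6 and hg19 were not computed under these 3 settings. Neighbouring stretches also scattered around 1, with 2.35 in the 500 kb before the first window (11.5 kb in WT, 27.0 kb in UBR7-KO) and 0.729 in the 500 kb after the second.

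The excess of UBR7-KO length lay in a small share of the second window. Without hg19 gene models, it could not be told whether this share held any histone gene. With the window divided into 7 equal parts of 110 kb, UBR7-KO peaks covered less than WT peaks in 5 of them, by 1.88 to 3.48 kb. In the fifth part (27540001 to 27650000), 10 UBR7-KO peaks covered 22.4 kb and 6 WT peaks covered 8.43 kb. In the sixth part (27650001 to 27760000), 7 UBR7-KO peaks covered 16.1 kb, whereas the only WT peak covered 1.95 kb. Without both parts, which were chosen after their values were seen, the ratio over the remaining windows was 0.872, and without the sixth alone it was 1.02. The sixth part also spanned most of the longest stretch of the second window without a WT peak, 95.5 kb from 27634289 to 27729798. Within it lay a run of 8 UBR7-KO peaks from 27642955 to 27728211, with no WT peak between them, that covered 16.3 kb. The fold enrichments of these peaks ranged from 2.004 to 2.87, and the highest belonged to the peak at 27705931 to 27707430.

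**Figure D2:**
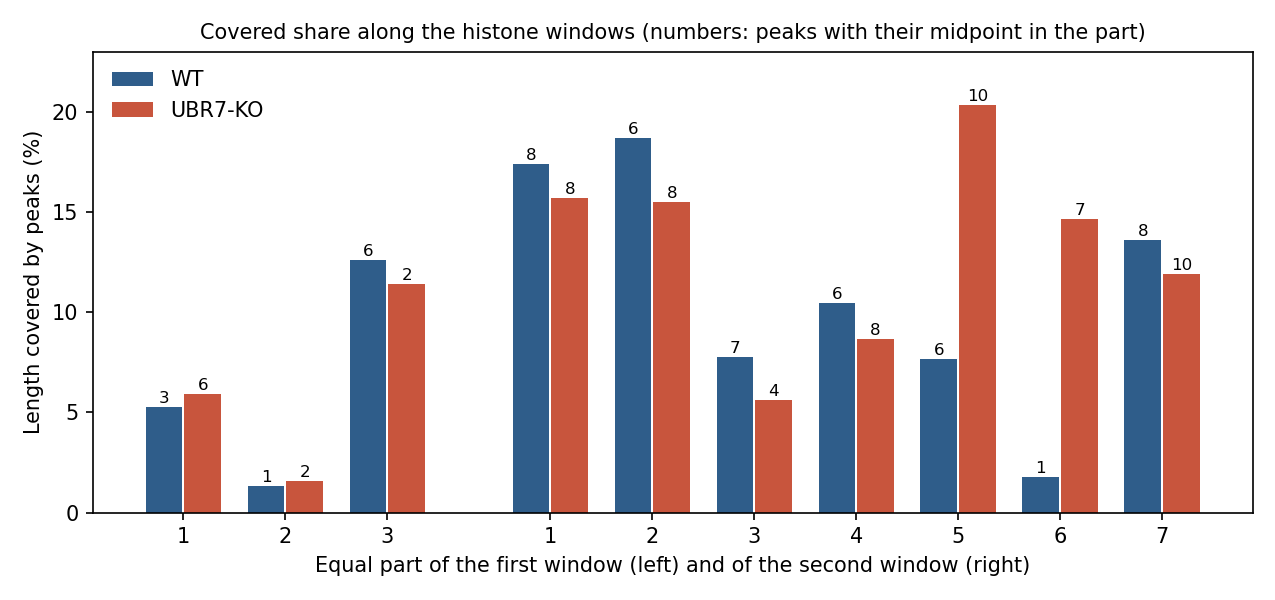
Bars give the share of length covered by peaks (%) in 3 equal parts of the first window and 7 equal parts of the second, for WT and UBR7-KO, and the number over a bar counts the peaks with their midpoint in that part. UBR7-KO is above WT by a wide margin in the fifth and the sixth part of the second window, with 10 and 7 peaks against 6 and 1, and slightly below it in the other 5.

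In the first window, the middle was nearly bare in both lists. Its 3 equal parts were covered by 5.26%, 1.32% and 12.6% in WT and by 5.93%, 1.56% and 11.4% in UBR7-KO. The longest stretch without a peak spanned 106.1 kb in WT (26085895 to 26191994) and 87.9 kb in UBR7-KO (26126483 to 26214409), and 65.5 kb was free of peaks in both. The lists differed in how the rest was filled. WT had 6 peaks in the last part, where UBR7-KO had 2 longer ones of 5004 and 5200 bp, and UBR7-KO had a run of 5 peaks at 26053810 to 26071078 that met no WT peak. In the second window, the longest stretch without a peak of either list was shorter, at 33.3 kb. By list, its longest stretch without a peak was 95.5 kb in WT and 46.6 kb in UBR7-KO.

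**Figure D3:**
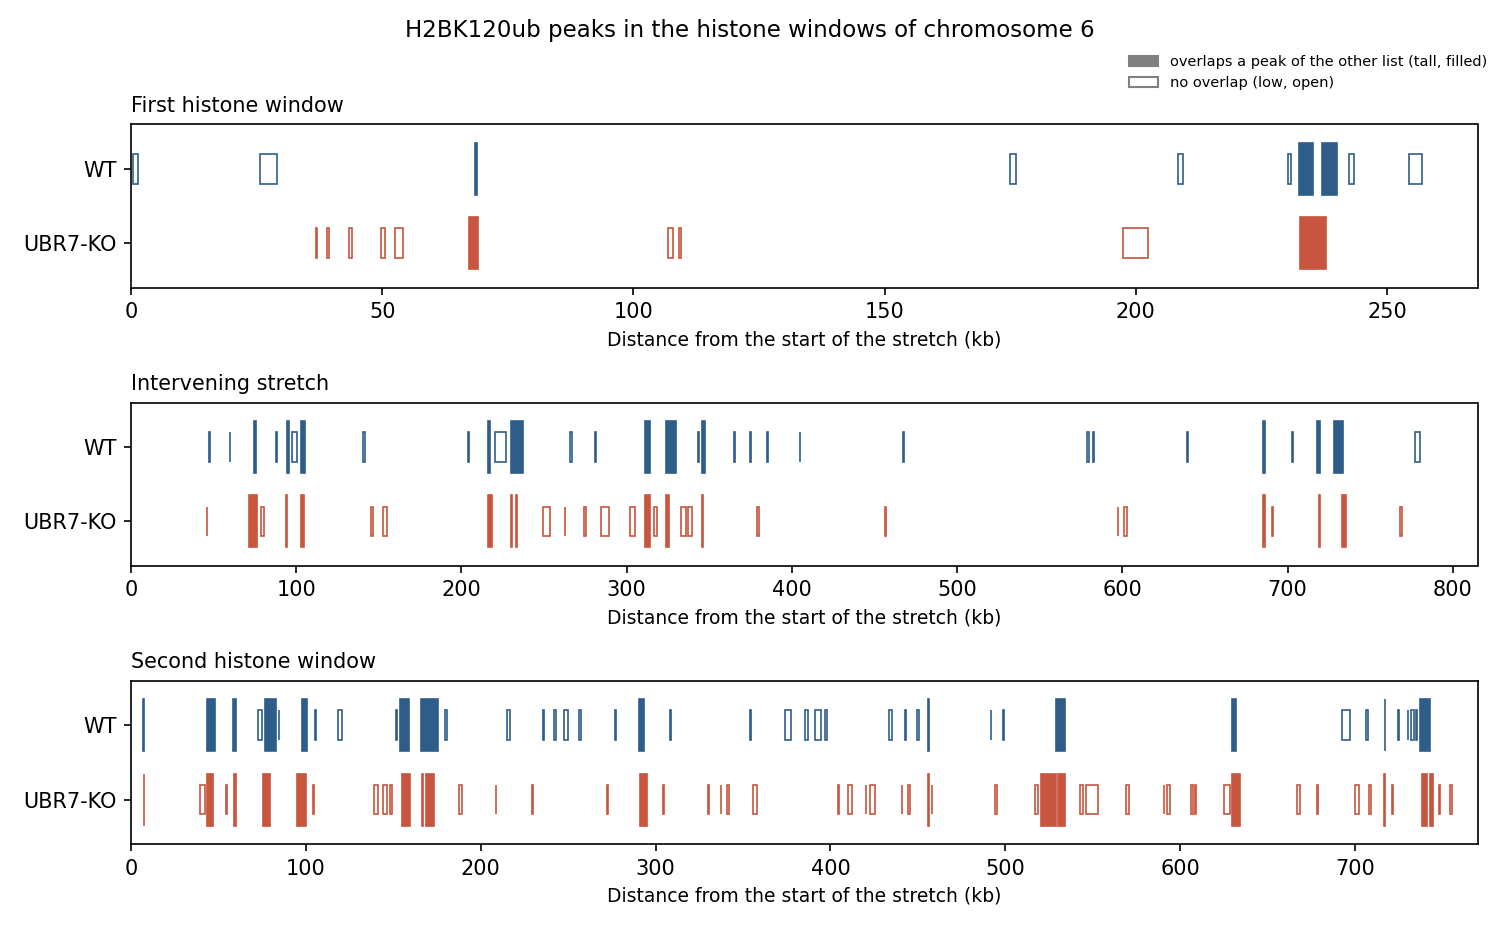
Each bar is 1 peak at its distance from the start of the stretch (kb), with its width to scale, for WT (upper row) and UBR7-KO (lower row) in the first window, the intervening stretch and the second window. Tall filled bars overlap a peak of the other list and low open bars do not, so 16 of 52 WT bars and 18 of 65 UBR7-KO bars in the histone windows are filled, and a run of 8 open UBR7-KO bars in the second window faces no WT bar.

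Members were shorter by median than the peaks of the whole lists. Over both windows, WT members had a median length of 1204 bp (quartiles 583 to 2730 bp). The median of the UBR7-KO members was 1153 bp, with quartiles of 491 to 2354 bp. The whole lists had medians of 1584.5 and 1361.5 bp, and chromosome 6 had 1399 and 1236 bp. Neighbouring stretches were below the whole lists too, with 1394 and 1340.5 bp in the intervening stretch. The 500 kb before the first window had 1006 and 802 bp, and the 500 kb after the second had 1079 and 933 bp, both shorter than the members. Peaks under 1000 bp made up 24 of 52 (46.2%) in WT and 29 of 65 (44.6%) in UBR7-KO, against 35.1% and 39.3% of the whole lists. There were 5 WT and 4 UBR7-KO members of 5000 bp or more. No member reached 10000 bp (0 of 52 and 0 of 65, which allows a share of up to 5.77% and 4.62%), and the intervening stretch and the 500 kb on either side of the cluster had none either. Such peaks were 3.73% and 1.22% of those on chromosome 6, and 7.58% and 3.75% of the whole lists, where they held 43.7% and 25.6% of the length. Of these shares, the 7.58% alone lay above what a count of 0 allows.

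The longest WT peak, 9255 bp, lay in the second window at 27266036 to 27275290, and 2 UBR7-KO peaks of 491 and 4683 bp fell within it. The next were peaks of 6309 bp at 27176337 to 27182645 and of 5954 bp at 27836992 to 27842945. All 3 had a counterpart in UBR7-KO. Among UBR7-KO peaks of the second window, the longest spanned 8656 bp at 27620327 to 27628982 and met the WT peak beside it over 215 bp only. The second, 6391 bp at 27646399 to 27652789, was 12110 bp away from the nearest WT peak. The third, 4773 bp at 27195077 to 27199849, had a WT counterpart of 2851 bp. In the first window, the longest WT peaks were of 3262 bp (26042707 to 26045968), 3080 bp (26253973 to 26257052) and 2909 bp (26249415 to 26252323). The last 2 of them both overlapped 1 UBR7-KO peak of 5200 bp, at 26249589 to 26254788. The UBR7-KO peak of 5004 bp at 26214410 to 26219413 had its nearest WT peak 5943 bp away. The third longest there, 1695 bp at 26084370 to 26086064, enclosed a WT peak of 507 bp.

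Members stood as little above background as peaks elsewhere. The fold enrichment of a peak, as the authors' caller gave it, sets its pileup against local background in its own library, and values were read only within a list. The median was 2.22 in WT (range 2.01 to 2.91) and 2.19 in UBR7-KO (range 2.001 to 3.31), against 2.20 and 2.15 over the whole lists, whose lowest value was 2. Values of 2.5 or more belonged to 10 WT members (19.2%) and 5 UBR7-KO members (7.69%), against 16.9% and 9.77% of the lists. The median pileup, the fragments stacked over a peak, was 6.50 in WT and 4.66 in UBR7-KO, against 6.45 and 4.41 in the lists. It depends on depth, which is unknown here, so these pileups were not compared between libraries.

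The members with the highest fold enrichment were from 277 to 1794 bp long. In WT, the highest fold enrichments of the second window were 2.91 for 2 peaks (27356272 to 27357590 and 27315070 to 27316863) and 2.84 for a peak at 27496801 to 27498031. The first of them ranked 3525 in the WT list. In UBR7-KO, a peak of 277 bp at 27557997 to 27558273 had a fold enrichment of 3.31 and ranked 306 in its list, and it lay 1754 bp from the nearest WT peak. It was followed by 2.87 at 27705931 to 27707430, which was 22368 bp away from any WT peak, and 2.80 at 27372235 to 27372812. In the first window, the highest values were 2.62 in WT (26017418 to 26018349), then 2.43 (26247259 to 26247887) and 2.41 (26225357 to 26226343). In UBR7-KO they were 2.67 (26060475 to 26061035), then 2.22 in the peak of 1695 bp and 2.21 (26053810 to 26054087). Of these 12 peaks, the UBR7-KO peak of 1695 bp was the only one with a counterpart. Over all peaks of the lists, 40.2% in WT and 35.2% in UBR7-KO had one, with lower shares among short peaks. Of all members with a fold enrichment of 2.5 or more, a set chosen after its values were seen, 1 of 10 in WT (exact 95% interval 0.253 to 44.5%) and 1 of 5 in UBR7-KO (0.505 to 71.6%) had a counterpart. At that threshold, the share over the whole list was 52.7% in WT and 34.8% in UBR7-KO. With the length classes of the members, these shares would be 38.4% and 28.2%, which both lie inside the intervals.

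Next, the members were matched between the lists by overlap of at least 1 bp. A counterpart was found for 16 of 52 WT members (30.8%, exact 95% interval 18.7 to 45.1, counting error only) and for 18 of 65 UBR7-KO members (27.7%, 17.3 to 40.2). The background is 40.2% of all WT peaks and 35.2% of all UBR7-KO peaks, which both lie inside these intervals. Short peaks meet a counterpart less often. If each member had the whole-list share of its length class, 35.6% of the WT members and 31.5% of the UBR7-KO members would have had one. At these numbers, a difference in matching between the histone windows and the lists was not detectable. The intervening stretch had 11 of 31 WT peaks (35.5%, 19.2 to 54.6) and 12 of 30 UBR7-KO peaks (40.0%, 22.7 to 59.4) with a counterpart. By window, the counts were 3 of 10 WT and 2 of 10 UBR7-KO peaks in the first, and 13 of 42 and 16 of 55 in the second.

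Matched members were the longer ones in both lists. The median length was 2880 bp with and 948 bp without a counterpart in WT, and for UBR7-KO it was 3631 and 866 bp. All 5 WT members of at least 5000 bp were matched, as were 65.4% of WT peaks from 5000 bp to under 10000 bp over the whole list. In UBR7-KO, 2 of the 4 members of that length were matched, against 72.1% over the whole list. Of members under 1000 bp, 4 of 24 in WT (16.7%) and 4 of 29 in UBR7-KO (13.8%) were matched, against 22.7% and 19.0% over the whole lists.

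**Figure D4:**
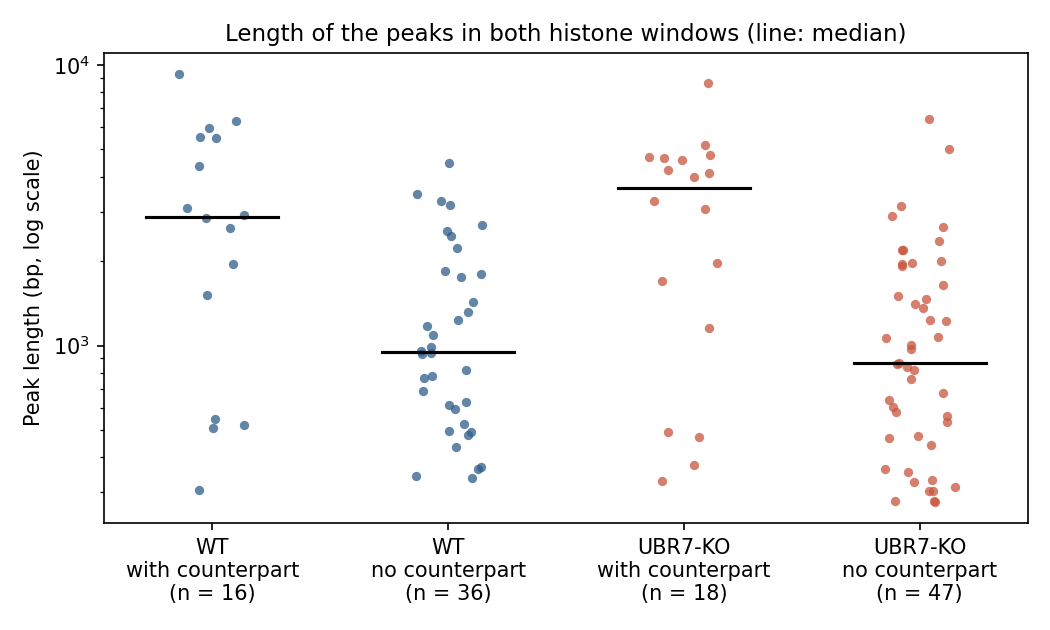
Each point is 1 peak of the histone windows, placed by its length (bp, log scale) and grouped by list and by whether it overlaps a peak of the other list, with the median as a line and points spread sideways only for legibility. The medians with a counterpart, 2880 bp (WT) and 3631 bp (UBR7-KO), are above those without one (948 and 866 bp), and the ranges overlap in both lists.

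Measured by length, 36.3 kb of the windows was covered in both lists, which was 35.6% of the WT length and 30.7% of the UBR7-KO length there. Over hg19 these shares were 40.5% and 45.7%, and over chromosome 6 they were 30.3% and 34.1%. In the intervening stretch they were 22.8% and 24.8%, below the windows. Its shares of peaks with a counterpart, 35.5% and 40.0%, were above those of the windows, with wide intervals. The first window alone had 23.7% and 24.0% of its length shared, and the second 38.0% and 31.8%. The shared length was 4.06 kb in the first window and 32.3 kb in the second. In the fourth part of the second window (27430000 to 27540000) it was 0 kb, although 6 WT and 8 UBR7-KO peaks lay there. In contrast, the first part shared 10.2 kb, out of 19.2 kb in WT and 17.3 kb in UBR7-KO.

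The 19 overlapping pairs of the windows shared from 87 to 4683 bp, with a median of 1950 bp, and in 12 pairs the overlap took at least 50% of both peaks. In 11 pairs each peak met only the other. The WT peak was the longer of these in 6 and the UBR7-KO peak in 5, with length ratios of UBR7-KO to WT from 0.631 to 3.34 and a median of 0.861. Some pairs had nearly the same borders. The closest was at 27816818 to 27817123 in WT, which began 51 bp after and ended 19 bp before its UBR7-KO counterpart at 27816767 to 27817142. Another pair, at 27143379 in WT and 27143373 in UBR7-KO, began 6 bp apart.

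Members without a counterpart lay at varied distances from peaks of the other list. These distances were not set against random placement or against the whole lists. Whether such members lay closer than the number of peaks per length alone would give was therefore not tested. The median distance to the nearest peak of the other list was 5196 bp for 36 WT members and 8299 bp for 47 UBR7-KO members. It was at most 5000 bp for 18 WT and 17 UBR7-KO members, and the longest distances were 23940 and 40257 bp. In the first window, the distances were longer for UBR7-KO (8 members, median 14408 bp) than for WT (7 members, median 7841 bp).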

How the data were processed

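H2BK120ub ChIP-seq peaks of 1 WT and 1 UBR7-KO library were analysed. Chromatin was fixed, sheared and precipitated with an H2BK120ub antibody, and rabbit IgG was run beside it. The authors aligned reads to hg19 (BWA aln in the study's methods, Bowtie 1.1.2 in the submitters' processing notes) and ran the peak caller MACS separately for each library, with a q-value threshold. That threshold, any use of a control, the broad or narrow mode and the treatment of reads with several matching positions are not given in the sources used here. The study's methods also describe a list for each mark that includes peaks found repeatedly. Whether the deposited lists, at 1 library per genotype, went through that step is not stated. The labels name total RNA as the molecule, although the assay is ChIP-seq. The deposited lists hold the position and length of each peak in bp, the pileup (a signal from stacked fragments, which depends on depth) and the fold enrichment (a ratio to the background of the same library), both computed by the authors' peak caller.

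The UBR7-KO list ended in 6 blank rows, which were dropped. Positions were used as given, counted from 1 with both ends included. Members, covered length, overlap (at least 1 bp) and distances were computed with Python 3.11.15, numpy 2.4.6, pandas 2.3.3 and scipy 1.17.1, and chromosome lengths came from GenomeInfoDb 1.38.1. The interval code was checked on made-up peaks against bedtools 2.31.1. Background was recovered as pileup plus 1 over fold enrichment, minus 1. Expected matching used the share of matched peaks in 6 length classes (edges at 500, 1000, 2000, 5000 and 10000 bp) of the whole list. Named peaks are the 3 longest and the 3 highest by fold enrichment of each list and window. The pairs, runs and parts named beside them were chosen after their values were seen. The windows, measures and alternatives were chosen with earlier results of these data known. With 1 library per genotype, no p-value was computed, and the depth of the libraries is unknown. Gene-level values and sequences were not analysed here, since no hg19 annotation or sequence was used. Alternatives changed the thresholds, merging, list size, window edges, overlap and parts.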

Additional observations from a re-analysis of the deposited data

How the results depend on the processing

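Of 204 values under alternative settings, 164 stayed within 1.5 times the reported value, or within its 95% interval for shares of matched peaks, with the same direction. The 164 include all values under the midpoint rule for members, which could not change. They also include WT values at equal list size other than matching, which were fixed because the smaller WT list stayed whole. The other 40 follow, and their cause was not tested. A fold enrichment of at least 2.5 left 10 WT and 5 UBR7-KO peaks (ratio 0.5, reversed), covering 0.947% and 0.317% (ratio 0.335, reversed), with a UBR7-KO median length of 561 bp (ratio to WT 0.594). The whole lists kept 17185 WT and 12452 UBR7-KO peaks there. With both lists cut at that threshold, matching was 0% in both. At 10 and 5 peaks this allows up to 30.0% and 60.0%, by a rough rule of 3 counts over the total. Against the uncut other list, 1 of 10 WT and 1 of 5 UBR7-KO peaks were matched. Requiring 3 times the background in pileup left 14 and 30 peaks (ratio 2.14), covering 1.41% and 5.06% (ratio 3.59). The whole lists kept 25796 WT and 57216 UBR7-KO peaks at that threshold. It depends on the pileups of each library, so it was not equally strict in both lists. With both lists cut this way, 7.14% and 3.33% of peaks were matched (ratio 0.467). Against the uncut other list, it was 14.3% of 14 WT and 33.3% of 30 UBR7-KO peaks, so the direction depended on the cut. Matching over the whole lists was not computed at that threshold. There, the WT windows were covered 0.702 times as much as the intervening stretch (reversed) and the ratio of median lengths was 1.35 (reversed). Merging within 5000 bp left 42 UBR7-KO peaks with a median of 3338 bp (ratio 2.27, reversed). Equal list size gave a ratio of covered shares of 0.915 (reversed), and brought the ratio of peak numbers from 1.25 and that of matched shares from 0.900 both to 1.0, on 52 peaks each. Narrower windows gave a ratio of median lengths of 1.02 (reversed).

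The first window alone held 10 and 10 peaks (ratio 1.0) and covered shares of 6.39% and 6.30% (ratio 0.986, reversed). Against the intervening stretch it gave 0.981 (WT, reversed) and 1.01 (UBR7-KO) by peaks per length, and 0.910 and 0.975 by covered share (both reversed). Leaving out the fifth and sixth parts of the second window, added after seeing the data, reversed the ratio of covered shares to 0.872 and that of matched shares to 1.01. Narrowing the intervening stretch and leaving out the longest member changed no direction, and the midpoint rule for members could not change a value, since no peak crossed a window edge. No paired analysis was possible because only 1 library of either genotype exists in these data, and leaving out a replicate could not be tried. With no read counts, depth limits every comparison of peak number between the lists.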

Other observations

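The intervening stretch was unevenly covered in both libraries. Of its 7 equal parts, the third (26517858 to 26634285) was covered by 15.1% in WT, with 7 peaks, and by 22.9% in UBR7-KO, with 12 peaks, the highest share in both lists. The second and the seventh part were covered more in WT, by 11.3% and 9.39%, than in UBR7-KO, by 5.81% and 3.44%. The fourth part was covered by 1.69% and 1.35%, and the one after it by 1.604% in WT, with 2 peaks, and 0% in UBR7-KO. The longest part of that stretch without a peak of either list was 110.8 kb (26752616 to 26863390). The peak with the highest fold enrichment between the windows was a WT peak of 370 bp at 26689852 to 26690221, with 3.16 and no UBR7-KO counterpart.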
